A study of Mus musculus with 24 samples.

Results

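Olfactory bulb interneuron genes were followed in the mouse brain as 10 genes: Dlx1, Dlx2, Dlx5, Dlx6, Sp8, Meis2, Pbx3, Tshz1, Th and Eomes. Every probe set that the platform annotation gives to 1 of these symbols and to no other gene was taken, which gave 16 of the 45101 probe sets on the array. The genes were chosen on earlier results of these same arrays, the difference of their levels between the fast food and pellet diets. Values of any pair of diets that uses fast food or pellet arrays are therefore given as a description, without a test. The batch values of the pellet arrays are a description too. Calls of the interaction with the pellet batches are counted beside those of all probe sets, and nothing is read from them. Tests are given for the cafeteria against chimpanzee pair and for the batches within the fast food, cafeteria and chimpanzee diets. Correlations of the genes with each other and with marker lists also carry permutation p-values. They use deviations within diet and batch, with the pellet arrays included.

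RNA came from the right cerebral hemisphere of 24 female NMR-1 mice, aged 8 weeks when the experiment began, which received 1 of 4 diets for 2 weeks (6 mice each): only fast food (FastFood), cooked meals of a staff cafeteria (HumanCafe), the fruit, vegetables and yogurt given to captive chimpanzees (Chimpanzee), or the pellets on which all mice had been raised (Pellet). Each mouse gave 1 Affymetrix whole-genome array, and the labels put 3 arrays of every diet in batch 2 and 3 in batch 1 of the RNA processing. The values are log2 levels that the authors computed with the robust multichip average (RMA), so that a difference of 1 stands for a doubling of signal. Neither the labels nor the methods say whether the olfactory bulb stayed on the dissected hemisphere.

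The olfactory bulb receives new GABAergic interneurons throughout life. They are born beside the lateral ventricle, migrate forward, and settle as granule cells in the core of the bulb or as periglomerular cells around its glomeruli. Dlx1, Dlx2, Dlx5 and Dlx6 are homeobox transcription factors of forebrain GABAergic neurons, and the zinc finger factor Sp8 acts in the same lineage. Meis2 and Pbx3 are homeobox factors of the TALE class, which bind DNA together with other homeobox proteins and are also present in the striatum. Tshz1 is a zinc finger factor of granule cells, and Th, tyrosine hydroxylase, makes the dopamine of some periglomerular cells as well as that of midbrain neurons. Eomes (Tbr2) differs from the rest, because it marks the glutamatergic mitral and tufted cells that the interneurons contact, and newborn neurons of the hippocampus.

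The DNA just before the transcription start is shown for Dlx2, which entered 4 of the 7 correlations described later, and for Th, whose levels spread most on the 3 changed diets. RefSeq windows on GRCm38.p6 were at hand for 6 of the 10 genes, and these are the 2 whose 250 upstream bases lay wholly outside the annotated gene and could be shown here. Both run 5′ to 3′ on the strand of the gene and end at the last base before the start. Capitals mark a GC box (CCGCCC or its complement GGGCGG, bound by Sp-type zinc finger factors) and, in Th, the cyclic AMP response element (TGACGTCA).
Dlx2, chr2:71546755-71547004, minus strand: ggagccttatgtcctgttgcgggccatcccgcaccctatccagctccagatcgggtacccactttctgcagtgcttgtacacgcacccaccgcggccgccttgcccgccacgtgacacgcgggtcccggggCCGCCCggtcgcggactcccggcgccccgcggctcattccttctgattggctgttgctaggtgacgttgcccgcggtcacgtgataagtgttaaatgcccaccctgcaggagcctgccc
Th, chr7:142899996-142900245, minus strand: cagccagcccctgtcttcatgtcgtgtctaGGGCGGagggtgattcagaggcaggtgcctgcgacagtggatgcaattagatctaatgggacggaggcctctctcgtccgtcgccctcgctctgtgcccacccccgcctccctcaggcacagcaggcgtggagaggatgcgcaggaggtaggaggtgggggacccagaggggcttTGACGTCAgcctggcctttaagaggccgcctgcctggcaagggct
Searched on both strands, TGACGTCA occurred in 1.55% of the 32851 upstream windows in the table and, among the windows of these genes, in that of Th, at bases 45 to 38 before the start. The GC box occurred in 32.7% of all windows and in those of Dlx2, Th and Sp8. The homeodomain core TAATTA, found in 4.84% of all windows, and the Meis site TGACAG, found in 15.9%, each occurred in 1 window of Sp8 and in no other window of these genes. The arrays measured RNA, and no binding was measured.

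RefSeq places Dlx1 at chr2:71528113-71533981 and Dlx2 at chr2:71543408-71546754, next to each other, and likewise Dlx6 at chr6:6863334-6867970 and Dlx5 at chr6:6877801-6882068 (GRCm38.p6). Meis2 lies at chr2:115861264-116067537, Pbx3 at chr2:34171457-34372045, Th at chr7:142892779-142899995, Tshz1 at chr18:84011627-84087708, Sp8 at chr12:118846288-118852578 and Eomes at chr9:118478186-118486132.

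Of the 16 probe sets, 13 had a mean level of at least 4.07, the median of all non-control probe sets, and entered the fits of 21996 probe sets. These 13 report 8 genes. The 3 below that level were the probe set of Sp8, with a mean level of 2.98, and both probe sets of Eomes, with mean levels of 3.55 and 3.45, so that a difference in these genes could be missed. Each gene is described by the probe set with its highest mean. Levels of different probe sets depend on their probes and were not set against each other. Where a gene had several probe sets, the pairs of highest mean correlated over the 24 arrays at r = 0.93 for Pbx3, 0.94 for Meis2, 0.69 for Tshz1 and 0.76 for Eomes, whereas Meis2 probe set 1447861_x_at and the main Meis2 probe set reached only 0.36.

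Certain arrays stood apart, and the results on them are given with and without. Pellet batch 2 replicate 1 held the lowest value of 59.1% and the highest of 17.4% of all 21996 probe sets. Its median correlation with the other arrays was 0.892, against 0.980 to 0.993 for the rest. Pellet batch 2 replicate 3 held the lowest value of 3.94% of probe sets. The methods left out 1 pellet array for RNA degradation without naming it, and all 24 were used here. The 18S ribosomal RNA control lay between 4.88 and 5.15 in batch 2 and between 5.87 and 6.58 in batch 1 of the fast food, cafeteria and chimpanzee diets. On pellets the order was the other way round (5.92 to 6.42 for labelled batch 2, 4.96 to 5.51 for batch 1), so the batch labels of the pellet arrays may be exchanged, which the files and labels do not settle. Diets were compared with the labels as given, and results that use the pellet batches are also given with the labels exchanged.

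**Figure D1:**
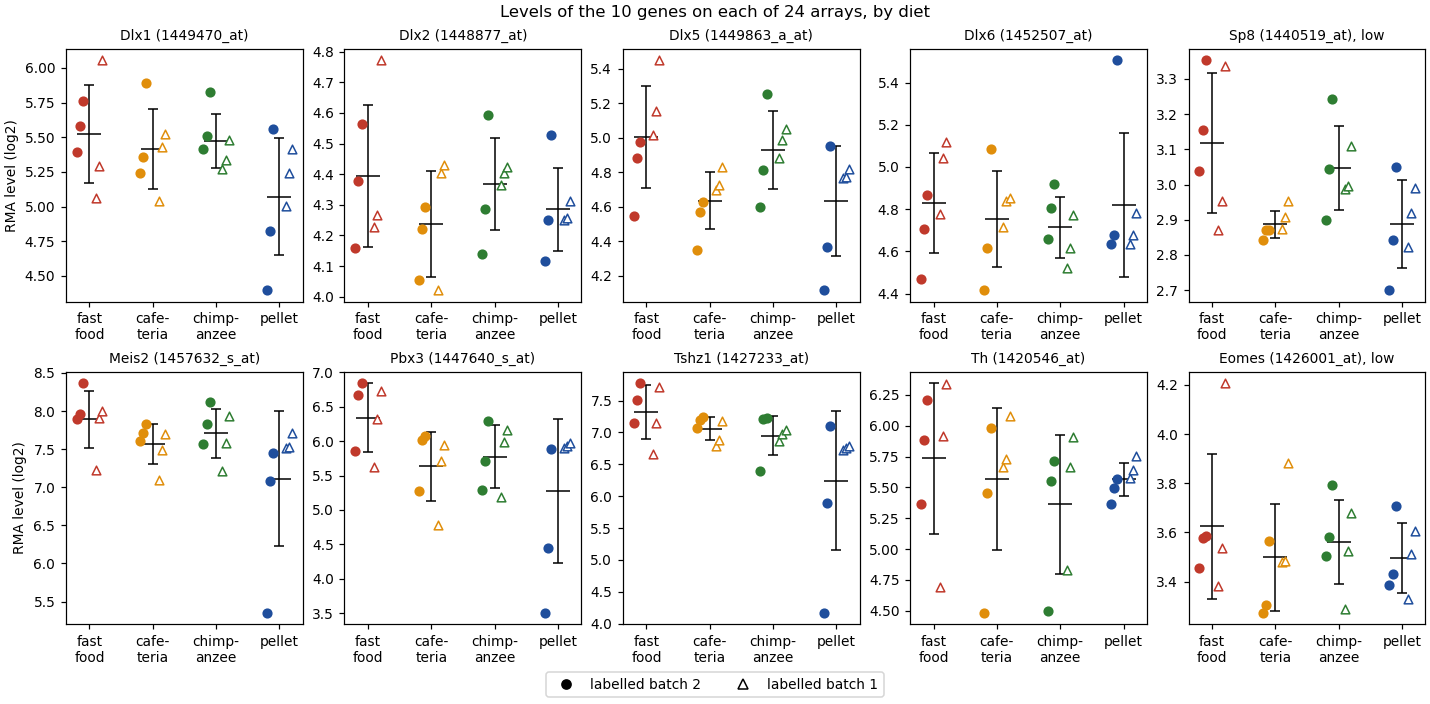
RMA level (log2, y axis) of each gene's main probe set on every array, by diet (x axis); filled circles are labelled batch 2, open triangles labelled batch 1, and the bar and whiskers are mean and SD over 6 arrays. In Meis2, Pbx3 and Tshz1 the pellet diet has a long lower tail, which holds the arrays at 5.35, 3.51 and 4.17.

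Among the Dlx genes, Dlx1 reached 5.07, 5.49 and 6.05 (lowest, median and highest of 6 arrays) on fast food, 5.04, 5.39 and 5.89 on cafeteria meals, 5.27, 5.45 and 5.83 on the chimpanzee diet and 4.40, 5.12 and 5.56 on pellets. Dlx5 lay at 4.55, 5.00 and 5.45 on fast food, 4.35, 4.66 and 4.83 on cafeteria meals, 4.60, 4.93 and 5.26 on the chimpanzee diet and 4.12, 4.77 and 4.95 on pellets. The diets overlapped in both genes, and the same array, FastFood batch 1 replicate 2, was the highest of all 24. Dlx2 had a narrow range of 4.02 to 4.77 over the 24 arrays, also with its highest value there. Dlx6, the neighbour of Dlx5 on chromosome 6, ranged from 4.42 to 5.51. Its highest value was that of Pellet batch 2 replicate 1, which was lowest in 59.1% and highest in 17.4% of all probe sets. Sp8 stayed between 2.70 and 3.35.

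The TALE factors and Tshz1 had wider ranges, with their lowest values on pellets. Pbx3 lay at 5.63, 6.49 and 6.84 on fast food, 4.79, 5.83 and 6.07 on cafeteria meals, 5.19, 5.85 and 6.29 on the chimpanzee diet and 3.51, 5.89 and 5.97 on pellets. Its pellet median was thus close to those of the cafeteria and chimpanzee diets, and the low pellet mean of 5.27 ± 1.04 (SD, n = 6) came from 2 arrays, at 3.51 and 4.45. Meis2 lay at 7.22, 7.94 and 8.36 on fast food, 7.09, 7.65 and 7.83 on cafeteria meals, 7.21, 7.70 and 8.12 on the chimpanzee diet and 5.35, 7.49 and 7.72 on pellets. Tshz1 lay at 6.67, 7.33 and 7.77 on fast food, 6.79, 7.12 and 7.25 on cafeteria meals, 6.39, 7.01 and 7.23 on the chimpanzee diet and 4.17, 6.74 and 7.10 on pellets. In all of these genes the lowest pellet array was replicate 1 of labelled batch 2 and the next lowest was replicate 3.

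Th had another pattern of spread. It varied widely on the changed diets, with 4.69, 5.90 and 6.34 on fast food, 4.48, 5.70 and 6.08 in cafeteria mice and 4.50, 5.61 and 5.91 in chimpanzee diet mice, and narrowly on pellets, with 5.36, 5.57 and 5.75. Its SD was accordingly 0.61, 0.58 and 0.56 on the changed diets and 0.13 on pellets, and Pellet batch 2 replicate 1, at 5.57, stood at the pellet median. Eomes ranged from 3.27 to 4.21, with every array but FastFood batch 1 replicate 2 at or below 3.88.

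The mean of the 6 arrays was highest on fast food in 10 of the 10 genes and lowest on pellets in 6. Among all 21996 probe sets, 48.6% had their highest mean on fast food and 63.1% their lowest on pellets. Without FastFood batch 1 replicate 2, fast food was highest in 5 of the 10 genes, against 53.8% of all probe sets. Without both low pellet arrays, pellets were lowest in 4 of the 10 genes, against 27.9% of all probe sets. For each pair of neighbouring diets in this order the 6 arrays of both overlapped.

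As a description of the pair on which the genes were picked, the fast food minus pellet difference was 1.08 for Tshz1, 1.07 for Pbx3, 0.78 for Meis2, 0.45 for Dlx1, 0.37 for Dlx5, 0.17 for Th, 0.11 for Dlx2 and 0.01 for Dlx6. The median over the 8 genes was 0.41, beside 0.17 over all probe sets. The differences were unevenly spread over the labelled batches: batch 2 alone gave 1.84 for Pbx3, 1.75 for Tshz1 and 1.44 for Meis2, whereas batch 1 alone gave 0.30, 0.42 and 0.12. Over the 8 genes the median was 0.50 in batch 2 and 0.27 in batch 1, beside 0.46 and -0.08 over all probe sets. In each batch 7 of the 8 were higher on fast food, all but Dlx6 (-0.26) in batch 2 and all but Th (-0.01) in batch 1. Without both low pellet arrays, the differences were 0.43 for Tshz1, 0.39 for Pbx3 and 0.28 for Meis2. Leaving out FastFood batch 1 replicate 2 as well brought the median over the 8 genes to 0.12. No gene's 6 fast food arrays were separate from its 6 pellet arrays, which held for 0.705% of all probe sets. In bulk tissue, fewer cells of a type and less RNA per cell cannot be told apart.

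The comparison of the cafeteria with the chimpanzee diet was independent of the choice of genes and asks whether a human diet changed them relative to a chimpanzee diet. None of the differences passed the test. Dlx5 came nearest, with cafeteria levels of 4.63 ± 0.16 and chimpanzee levels of 4.93 ± 0.22 (SD, n = 6 each), a difference of -0.30 ± 0.13 (SE, limma), whose unadjusted p of 0.034 became 0.99995 after adjustment over all probe sets. Pbx3 averaged 5.63 ± 0.51 in cafeteria mice and 5.77 ± 0.46 in chimpanzee diet mice. For Th the cafeteria mean was 5.57 ± 0.58 and the chimpanzee mean 5.36 ± 0.56. In all, 0 of 13 probe sets were called, beside 0% of all 21996, of which 321 had an unadjusted p under 0.05, 1 of them Dlx5. The two-way test of the methods likewise called 0 probe sets after adjustment (834 at an unadjusted p under 0.05). The fit over all diets used the pellet arrays too. Without them (18 arrays) 0 of the 13 and 2 of all probe sets were called (1142 at an unadjusted p under 0.05), and with exchanged pellet labels 0 of the 13 and 0 of all (510). Of the 19 markers of granule and periglomerular cells 10 were higher on the cafeteria diet, with a median difference of 0.00, and of the 12 mitral and tufted cell markers 3 were, with a median of -0.11. Markers of other brain regions differed more: all 10 cerebellum markers (median 0.55), all 11 thalamus markers (0.44) and all 9 hypothalamus markers (0.33) were higher on the cafeteria diet, although none passed. Their part in the values of the bulb genes was not tested. Over the 8 genes the median difference was -0.10, beside -0.01 over all probe sets.

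Batch 2 was compared with batch 1 on the fast food, cafeteria and chimpanzee diets, 9 arrays against 9. Some Meis2 probe sets rose and Dlx5 fell, beside a median difference of 0.15 over all probe sets. The main Meis2 probe set lay at 7.57, 7.83 and 8.36 (lowest, median and highest) in batch 2 and at 7.09, 7.58 and 8.00 in batch 1, a difference of 0.30 ± 0.12 (SE; limma, adjusted p = 0.035). Meis2 probe set 1417129_a_at rose by 0.40 ± 0.09 (adjusted p = 7.3e-04). Meis2 probe sets 1447861_x_at (0.12 ± 0.10, limma adjusted p = 0.29) and 1440091_at (0.17 ± 0.09, limma adjusted p = 0.13) did not pass. Dlx5 lay at 4.35, 4.63 and 5.26 in batch 2 and at 4.70, 4.99 and 5.45 in batch 1, a difference of -0.24 ± 0.09 (adjusted p = 0.029). The ranges of the batches overlapped in both genes. These were 3 of the 13 probe sets, beside 51.5% of all probe sets, so the genes were called no more often than the rest of the array. Of the granule and periglomerular cell markers, 7 of 19 rose and 1 fell, and of the mitral and tufted cell markers 2 of 12 rose and 1 fell. When FastFood batch 2 replicate 1 was left out, 1 of the 13 was called. With 1 array left out in turn, the main Meis2 probe set missed the threshold in 6 of 18 cases and Dlx5 in 4 of 18. With quantile normalization repeated, 0 of the 13 were called higher and 1 lower in batch 2, so no Meis2 rise was called. Th, with a difference of -0.19 ± 0.23, and Pbx3, with 0.17 ± 0.19, did not pass.

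**Figure D2:**
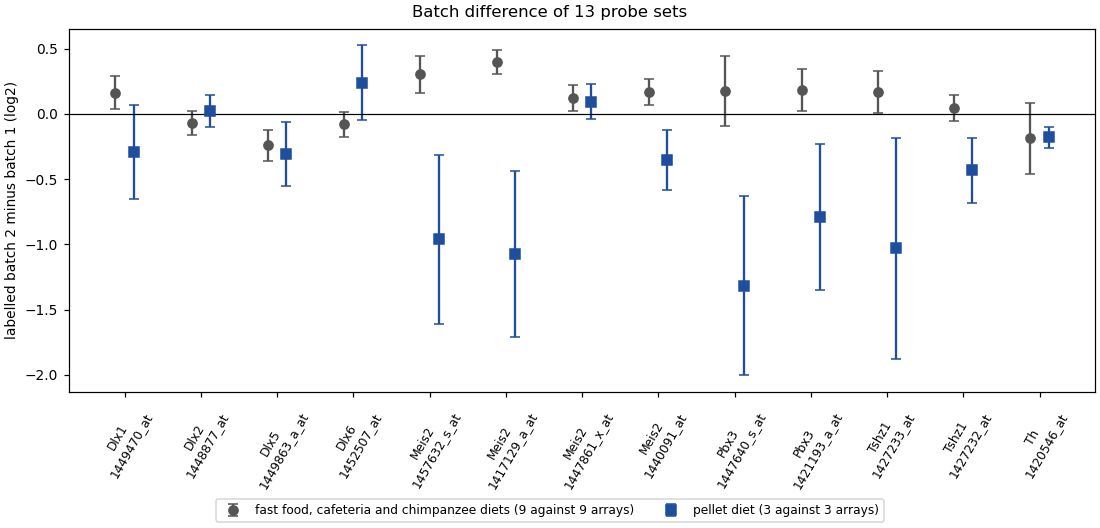
Labelled batch 2 minus batch 1 (log2, y axis) for the 13 probe sets in the fits (x axis), on the fast food, cafeteria and chimpanzee diets together (grey circles) and on pellets (blue squares); whiskers are the SE from the SDs of both batches. The main probe sets of Pbx3, Meis2 and Tshz1 have pellet differences of -1.32, -0.96 and -1.03, whereas Meis2 1447861_x_at, at 0.09 on pellets, Dlx5 and Th lie close to the other diets.

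The batch difference on these 3 diets was then set beside that on pellets, as a description, since the low pellet values that enter it also entered the choice of the genes. Pbx3 on pellets stood at 3.51, 5.88 and 4.45 (labelled batch 2) and at 5.89, 5.92 and 5.97 (batch 1), so that its batch difference was 0.17 on the 3 diets, against -1.32 on pellets. Meis2 on pellets stood at 5.35, 7.45 and 7.08 (labelled batch 2) and at 7.52, 7.72 and 7.53 (batch 1), with a batch difference of 0.30 on the 3 diets, against -0.96 on pellets. Tshz1 on pellets stood at 4.17, 7.10 and 5.90 (labelled batch 2) and at 6.79, 6.75 and 6.72 (batch 1), with a batch difference of 0.17 on the 3 diets, against -1.03 on pellets. The pellet differences were thus negative and larger in size. In each gene replicate 2 of labelled batch 2 lay close to the batch 1 arrays, and replicates 1 and 3 lay below all of them. Replicate 3 also had the highest mean of the 10 cerebellum markers in the fits of all 24 arrays (7.59, next array 6.93), with Pcp2 at 9.06 and Gabra6 at 8.88, and the highest 3′ minus 5′ difference of the Actb and Gapdh control probe sets (0.388, next array 0.346), a sign of RNA quality. Replicate 1 had the lowest cerebellum mean, 4.75. The part of these in the bulb gene values was not tested.

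The interaction, the batch difference of the 3 diets minus that of pellets, was 1.49 for Pbx3, 1.27 for Meis2, 1.20 for Tshz1, 0.46 for Dlx1, 0.07 for Dlx5, -0.01 for Th, -0.10 for Dlx2 and -0.32 for Dlx6. In limma 7 of the 13 probe sets passed, all of them higher on the 3 diets, beside 69.1% of all probe sets, and nothing is read from this count. It depended on the pellet arrays and their labels. Without both low arrays the values were 0.22 for Pbx3, 0.44 for Meis2 and -0.18 for Tshz1, with 0 of the 13 called (0 at an unadjusted p under 0.05). With the pellet labels exchanged they were -1.14 for Pbx3, -0.66 for Meis2 and -0.86 for Tshz1, with 0 of the 13 and 0 of all 21996 called (2 and 4572 at an unadjusted p under 0.05). With median centring of the arrays 2 probe sets were called higher and 2 lower, beside 7149 and 6094 of all 21996.

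**Figure D3:**
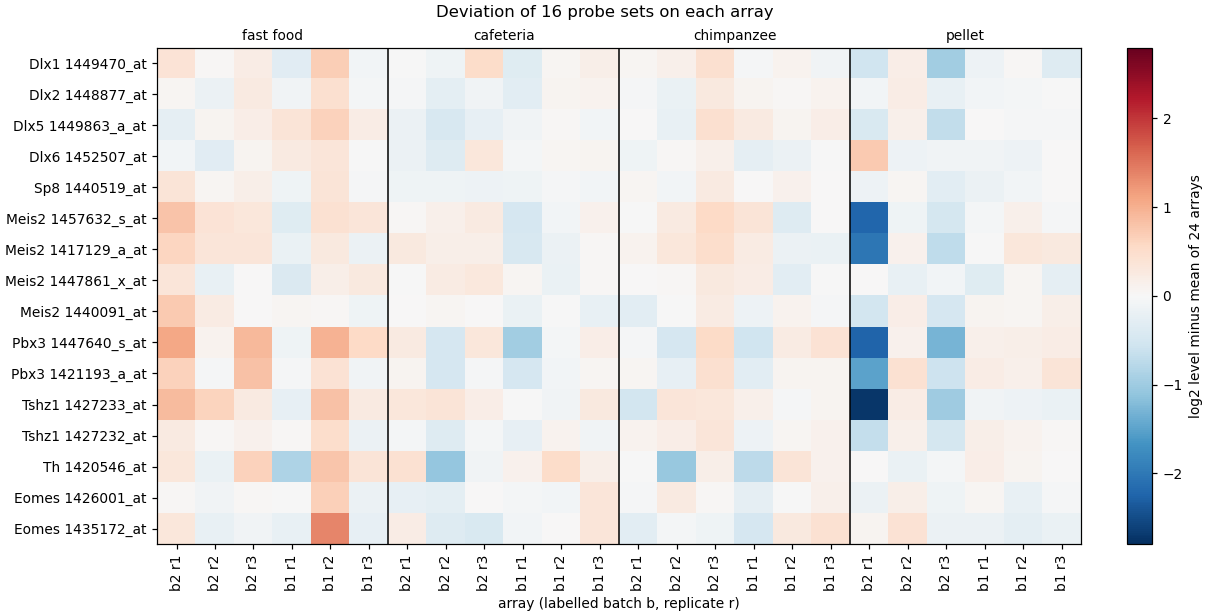
Level of each of the 16 probe sets (rows) on each array (columns, by diet, labelled batch b and replicate r) minus its mean over the 24 arrays, as colour on a log2 scale; red is above and blue below the mean. FastFood batch 1 replicate 2 is above the mean in every row, and the pellet column b2 r1 is far below it in the main probe sets of Meis2, Pbx3 and Tshz1 but not in Th or Dlx6.

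Some arrays stood out in many of these genes at once. FastFood batch 1 replicate 2 was the highest of the 24 arrays in 5 of the 10 genes and in 7 of the 16 probe sets. It was the highest in 1% of all probe sets in the fits (221 of 21996). The genes were chosen on their fast food minus pellet difference, which favours a high fast food array, so these counts are only a description. On this array Th reached 6.34, Dlx1 6.05, Dlx5 5.45, Dlx2 4.77 and Eomes 4.21. Some markers of mitral and tufted cells were high on the same array: Cdhr1, a cadherin of these cells, stood at 7.46, where the next array had 6.84, and Doc2g at 5.27, where the next had 5.26. These were 2 of the 12 in the fits that were highest there, and others lay below their mean over the arrays, such as Slc17a6 at 7.84 (mean 8.00) and Cck at 9.63 (mean 9.83). The mean level of the 12 mitral and tufted cell markers in the fits was 6.99 there, the highest of all arrays (next 6.89). For 9 markers of olfactory sensory neurons and ensheathing cells the mean was 7.197, barely above the next array at 7.196. Of these 9 markers, 0 were highest on this array. Scgn, secretagogin of bulb interneurons, also peaked there at 5.38 (next array 4.96), but the mean of the 19 granule and periglomerular cell markers ranked 9 of 24. The mean of 13 striatal projection neuron markers ranked 17 of 24 on this array, and that of 12 cortical and hippocampal interneuron markers 16. The part of the mitral, tufted, sensory and ensheathing cell markers in the high values was not tested. FastFood batch 2 replicate 1 was the highest array in Meis2, Pbx3, Sp8 and Tshz1, and it was also the highest in 15.9% of all probe sets.

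To see which genes varied together within a group, each level was expressed as its deviation from the mean of the 3 arrays of the same diet and labelled batch, and the deviations were correlated over the 24 arrays. Permutation p-values (two-sided, 100000 draws within diet and batch) were adjusted over the 45 pairs. They use arrays that entered the choice of the genes, so they are a description and no independent test. In 41 pairs the correlation was positive, and the median Pearson's r was 0.43 (0.52 over the 18 arrays of the changed diets). By r, 7 pairs passed, and 5 of these passed with Spearman's rho as well. Meis2 and Tshz1 had the highest r, 0.90 (rho = 0.75, permutation p = 3.1e-04, adjusted p = 0.014). It was 0.72 without the 2 arrays farthest from the median, 0.94 within labelled batch 2 and 0.73 within batch 1. Over the 18 arrays of the changed diets it was 0.73. Low pellet arrays that entered the choice of the genes are among the 24. Genes outside the set lay nearer to Meis2, such as Fyn (r = 0.96). How often pairs of other genes would be positive or pass was not tested, so these counts are not read as particular to these genes.

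Sp8 and Eomes, at mean levels of 2.98 and 3.55, lay below the level filter, and Dlx2, at 4.32, just above it. The part of background signal in their correlations was not tested. Dlx2 was the gene with the most partners. It varied with Sp8 (r = 0.78, rho = 0.73), Dlx1 (r = 0.77, rho = 0.73), Pbx3 (r = 0.74, rho = 0.84) and Dlx5 (r = 0.74, rho = 0.69), each at an adjusted permutation p of 0.027, and without the 2 farthest arrays these r were 0.75, 0.66, 0.72 and 0.76. In labelled batch 2 they were 0.78, 0.70, 0.76 and 0.81, and in batch 1 they were 0.79, 0.86, 0.75 and 0.77. Dlx1 with Sp8 (r = 0.74) and Pbx3 with Th (r = 0.55) passed for r at an adjusted permutation p of 0.027 but not for rho (0.61 and 0.55, adjusted permutation p = 0.058 and 0.068). For Dlx1 and Sp8 the r was 0.59 without the 2 farthest arrays, 0.72 within labelled batch 2 and 0.78 within batch 1. For Pbx3 and Th the r was 0.80 without the 2 farthest arrays, both of them pellet arrays, 0.41 within labelled batch 2 and 0.78 within batch 1. Dlx6 did not pass with any gene: r was 0.09 with Dlx5, its neighbour, and -0.54 with Meis2 (adjusted permutation p = 0.35). These values moved with Pellet batch 2 replicate 1, where Dlx6 was highest: without the 2 farthest arrays, of which it is 1, r was -0.29 with Meis2, and over the 18 arrays of the changed diets it was 0.14 with Meis2, 0.40 with Dlx5, 0.64 with Dlx1, 0.61 with Eomes and 0.57 with Pbx3.

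**Figure D4:**
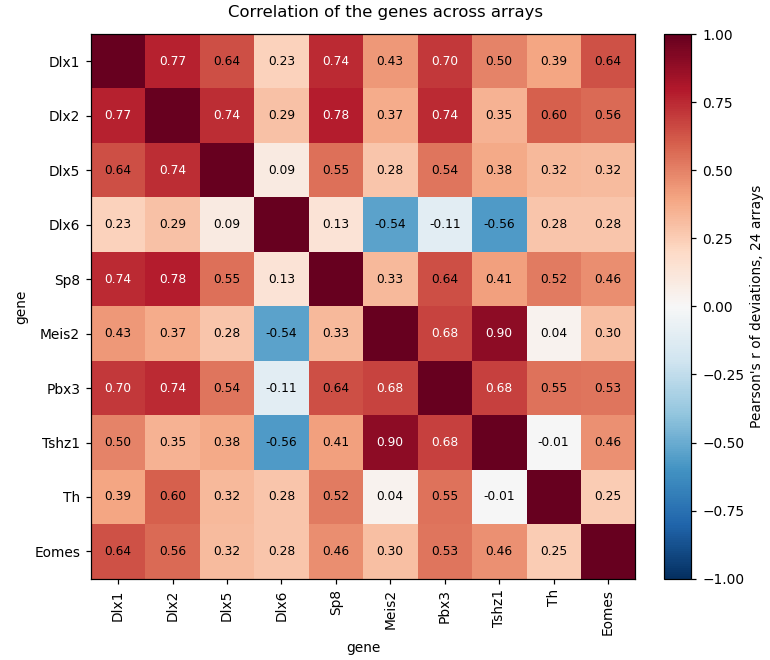
Pearson's r between the deviations of the 10 genes (rows and columns) from the mean of diet and labelled batch, over 24 arrays, as colour and number. Dlx1, Dlx2 and Sp8 form a block with r of 0.74 to 0.78, and Meis2 and Tshz1 have r of 0.90. Sp8 and Eomes lay below the level filter. Dlx6 has r of at most 0.29 with every other gene over these 24 arrays, although up to 0.64 over the 18 arrays without pellets.

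The same deviations were set against the mean deviation of 5 lists of cell type markers, 50 correlations in all, of which 6 passed for r and 5 of them also for rho. Pbx3 followed the granule and periglomerular cell list (r = 0.87, rho = 0.84, adjusted permutation p = 0.003), with r of 0.85 without the 2 farthest arrays, 0.87 within labelled batch 2, 0.88 within batch 1 and 0.93 over the 18 arrays of the changed diets. Meis2 and Tshz1 followed the mitral and tufted cell list (r = 0.75 and 0.70, rho = 0.81 and 0.75, adjusted permutation p = 0.0037 and 0.039). Without the 2 farthest arrays these r were 0.73 and 0.71, within labelled batch 2 both were 0.78, and within batch 1 they were 0.84 and 0.89. With the granule and periglomerular list, Meis2 had r of 0.775, which did not pass (adjusted permutation p = 0.081), although rho did (0.73, adjusted permutation p = 0.045). Tshz1 had r of 0.64 with it (adjusted permutation p = 0.28). Meis2 also followed the list of cortical and hippocampal interneurons (r = 0.80, rho = 0.70, adjusted permutation p = 0.047). This r was 0.74 without the 2 farthest arrays, 0.85 within labelled batch 2 and 0.82 within batch 1. That list and the mitral and tufted list share Reln and Cck, so their correlations are not independent of each other. No gene passed with the list of striatal projection neurons.

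Th followed the list of midbrain dopamine neurons (r = 0.72, rho = 0.68, adjusted permutation p = 0.047) and, for r only, the granule and periglomerular list (r = 0.60, rho = 0.51, adjusted permutation p = 0.047 for r and 0.15 for rho). Without the 2 farthest arrays these r were 0.66 and 0.47, within labelled batch 2 they were 0.73 and 0.49, and within batch 1 they were 0.70 and 0.78. The lists share Ddc and Slc6a3, the decarboxylase and the transporter of dopamine neurons, so the correlations are not independent of each other. Of the 13 midbrain genes on the array, 8 lay below the level filter, among them the defining factors En1, at 2.42 to 2.77, and Pitx3, at 3.44 to 5.48.

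**Figure D5:**
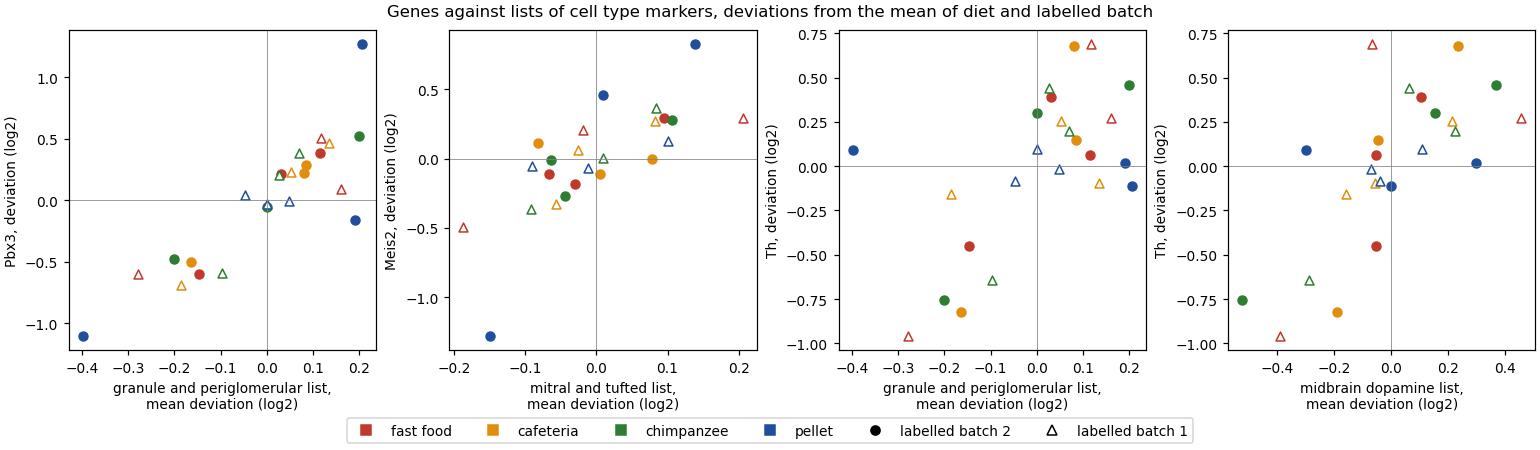
Deviation of Pbx3, Meis2 and Th (y axes, log2) from the mean of diet and labelled batch against the mean deviation of a list of cell type markers (x axes, log2), 1 point per array; colours are diets, filled circles labelled batch 2 and open triangles batch 1. Pbx3 rises with the granule and periglomerular list (r = 0.87), Meis2 with the mitral and tufted list (r = 0.75), and Th with both lists shown for it (r = 0.60 and 0.72).

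Patterns of other genes were compared by the same deviations from the mean of diet and labelled batch, over all 24 arrays. The genes most like the mean of the 8 genes in the fits were Gpsm1 (r = 0.92), Pcbp3 (0.89), Gng4 (0.89), Nipal2 (0.88) and Isoc1 (0.88). Gng4, a G protein gamma subunit, is 1 of the listed granule cell markers. Without both low pellet arrays these r lay between 0.85 and 0.90 over 22 arrays. For Pbx3 alone the nearest were Nipal2 (0.91) and Isoc1 (0.91), and for Dlx5 the nearest was Sox4 (0.80), a factor of immature neurons. Meis2 was most like Fyn (0.96) and Aldh5a1 (0.96), and Tshz1 was most like Pogz (0.93) and Wdr45 (0.93).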

How the data were processed

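RNA of the right cerebral hemisphere of 24 mice was measured on 24 arrays, whose diet, batch and replicate number came from the sample labels. The deposited values are log2 expression levels, for which the authors applied RMA (affy, Bioconductor) with its quantile normalization. Detection p-values were not used here. Of 45101 probe sets, 64 controls and 932 with several genes were set aside, and those with a mean under 4.07, the median of the non-control probe sets, were left out, which left 21996. These included 11636 genes, and the rest of the probe sets had no gene listed or repeated a gene.

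Diets were compared with limma 3.58.1 (R 4.3.3; lmFit and eBayes, labelled batch as a term, 24 arrays, pellets included). Batches were compared on 18 arrays with diet as a term, and the interaction on 24 arrays, with calls at p under 0.05 after Benjamini-Hochberg adjustment over 21996 probe sets. The fits were tested on simulated data. Correlations were computed in Python 3.11.15 with permutations within diet and batch, and figures with matplotlib 3.10.9. Alternatives covered the filter, 1 probe set per gene, other normalizations, array weights, the batch labels of the pellet arrays, a replicate block, and each array left out. The genes named are the 10 genes, list genes highest on the array that stood out, and the 5 genes of most like pattern. The genes and all marker lists were chosen with earlier results of these data known. Arrays of 1 diet are from separate mice, and their number limits the precision.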

Additional observations from a re-analysis of the deposited data

Results flagged for a closer look

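In 3 of 40 groups of 6 arrays (10 genes, 4 diets), 1 array lay far outside the others, where chance alone would give about 1 in 20 groups. Dlx6 on pellets stood at 5.51 in labelled batch 2 replicate 1 (next array 4.78), and Meis2 stood at 5.35 in the same array (next 7.08), so that the array was high in 1 gene and low in the other. Among all 21996 probe sets this array was the highest in 17.4% and the lowest in 59.1%. Eomes on fast food stood at 4.21 in batch 1 replicate 2 (next 3.59). The batch difference of the fast food, cafeteria and chimpanzee diets was set against that of pellets. This interaction passed its threshold in the main probe sets of Meis2 (1.27), Pbx3 (1.49) and Tshz1 (1.20), beside 69.1% of all 21996 probe sets. This is a description and no independent result, since low pellet values also entered the choice of the genes.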

How the results depend on the processing

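The count of calls between the cafeteria and chimpanzee diets stayed 0 in all 40 alternatives, including each array left out. The number tested differed with the filter: 16 without it, 4 at a mean level of at least 6 and 8 with 1 probe set per gene. For batch 2 against batch 1 on 3 diets, 3 probe sets were called, beside 51.5% of all probe sets. The count was 1 to 4 when 1 array was left out, with 1 when FastFood batch 2 replicate 1 was missing. The count was 1 with quantile normalization repeated, 0 with all 24 arrays as labelled, and, for single diets, 0 (fast food), 1 (cafeteria) and 0 (chimpanzee); with all 24 arrays as labelled the main Meis2 probe set changed sign (-0.0121). For the interaction, 7 were called, beside 69.1% of all probe sets. The count was 2 to 8 when 1 array was left out: 2 without Pellet batch 2 replicate 1, 3 without Pellet batch 1 replicate 3 and 4 without Pellet batch 1 replicate 1. The count was 4 of the 4 tested at a mean level of at least 6 (8943 of 10995 over all probe sets) and 3 of 8 with 1 probe set per gene (9592 of 13830). It was 2 with quantile normalization repeated, 4 with median centring (2 higher, 2 lower) and 3 with array weights, beside 11684, 13243 and 14855 of all 21996. Without both low pellet arrays it was 0, with or without the high fast food array (settings chosen after seeing the data). Without both low pellet arrays the signs of Pbx3 1421193_a_at (-0.0023), Tshz1 1427232_at (-0.0054) and Tshz1 1427233_at (-0.18, and -0.0886 without the high fast food array as well) changed, as did that of Tshz1 1427232_at under quantile normalization (-0.0393). With the pellet labels exchanged (also chosen after seeing the data) the interaction count was 0 and the signs of all 7 changed: Pbx3 -1.1418 and -0.6095, Meis2 -0.6573, -0.6736 and -0.1881, Tshz1 -0.8638 and -0.3850. The median fast food minus pellet difference of 0.41 lay between 0.30 and 0.51 when 1 array was left out, and was 0.93 for the 2 genes with a mean level of at least 6 and 0.12 without both low pellet arrays and the high fast food array. Fast food had the highest mean in 5 of 10 genes without FastFood batch 1 replicate 2 and in 6 without all 3 arrays. Replicate numbers did not pair the arrays (12 of 36 same-numbered correlations were over 0.1), and with the replicate block the counts were 0, 3 and 6. The cause of these changes was not tested.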

Other observations

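After the values were seen, it was asked which of the 3 arrays of a diet and batch was lowest in each gene. For Th, batch 2 held 5.88, 5.37 and 6.21 on fast food, 5.98, 4.48 and 5.45 on the cafeteria diet and 5.55, 4.50 and 5.72 on the chimpanzee diet (replicates 1 to 3), so that replicate 2 was lowest on every one of these diets. In batch 1, Th had 4.69, 6.34 and 5.92 on fast food, 5.67, 6.08 and 5.73 on the cafeteria diet and 4.83, 5.91 and 5.67 on the chimpanzee diet, with replicate 1 lowest on every one. Pbx3 followed the same order, with replicate 2 lowest in batch 2 and replicate 1 lowest in batch 1 on the 3 diets. Pellet arrays did not share it: there, Th was lowest in replicate 2 of labelled batch 2 and replicate 3 of labelled batch 1. Of all 21996 probe sets, 0.959% (211) had 1 replicate number, whichever it was, lowest on these 3 diets in both batches. The 6 arrays named for Th were picked because Th was lowest in them, so its place was fixed in advance. Pbx3 varied with Th (r = 0.55) and is no separate case. In the same 6 arrays 0.514% of all probe sets (113) were lowest, and 2 of the 8 genes in the fits, Th and Pbx3.

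Other genes with this order came from several brain regions. They included Ddc, which makes dopamine from the product of Th, Calb2 (calretinin) and Zic1, which bulb interneurons express, the vesicular glutamate transporter Slc17a6, the factors Isl1 and Shox2, and the hypothalamic peptide genes Avp, Oxt and Cartpt. Across the 21996 probe sets, the same replicate number was lowest on all of the fast food, cafeteria and chimpanzee diets for 10.5% in batch 2 and 5.48% in batch 1. The labels do not say what a replicate number stands for, and the order was not tested.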
